A study of Mus musculus with 2 samples.

Results

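Leukocyte microRNAs were examined in liver microRNA sequencing of newborn mice. The genes were chosen by name: Mir142b, Mir223, Mir146, Mir146b, Mir150, Mir155 and Mir342, 7 of the 1973 microRNA genes in the count table, and all 7 were found there. For Mir142b the reads on the opposite strand were used, because these lie at the place of Mir142. The tissue was whole liver of strain B6NCrl at postnatal day 0, from 2 pups of the same pregnant female, with no treatment, no second genotype and no second tissue. Each pup gave 1 library from total RNA with inserts below 30 bases, and the sex of the pups was not collected. Pup 1 is replicate 1 and pup 2 is replicate 2.

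MicroRNAs are short RNAs cut from hairpin precursors. They lower the output of messenger RNAs that pair with their seed, bases 2 to 8 of the mature strand. The genes described here are known from blood cells. Mir142 is read across blood cell lineages and Mir223 mainly in granulocytes and monocytes. Mir155 and Mir146 are induced when immune cells are activated, and Mir150 marks resting mature lymphocytes. The liver of a newborn mouse still holds blood-forming tissue beside hepatocytes, resident macrophages (Kupffer cells) and circulating blood.

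Mature sequences of 6 of the genes and of Mir142, with the strands usually taken as the working ones, are shown from RefSeq (GRCm38.p6), 5′ to 3′, with the seed in capitals, to show which of these microRNAs could share targets and which could share reads.
miR-142a-5p: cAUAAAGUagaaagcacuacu
miR-142a-3p: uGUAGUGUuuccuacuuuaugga
miR-142b: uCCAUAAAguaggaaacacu
miR-223-3p: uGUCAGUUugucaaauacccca
miR-342-3p: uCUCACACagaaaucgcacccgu
miR-146a-5p: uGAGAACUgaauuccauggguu
miR-146b-5p: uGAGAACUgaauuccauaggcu
miR-155-5p: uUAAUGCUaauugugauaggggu

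In all, 14 mature sequences of these genes and of Mir142 matched in the RefSeq table, and they carried 13 different seeds. For Mir150 they include miR-150-3p and not miR-150-5p, so what follows does not cover its 5p strand. Of these seeds, GAGAACU was the only one that another mature microRNA of the table also carried, and it was shared by miR-146a-5p and miR-146b-5p alone among 1679 mature names. These microRNAs agreed at 20 of 22 positions. Counted from the 5′ end, with the base of miR-146a-5p first, the differences were G18A and U21C, so the first 17 bases were the same. The hairpins of Mir146 and Mir146b shared up to 21 consecutive bases, and a read within that stretch fits both. The other strands shown shared at most 13 consecutive bases with the hairpin of another locus, the longest being that of miR-142a-5p with Mir3964. Reads that are full-length copies of Mir142, Mir223, Mir342 or Mir155 strands can therefore be told from those of the other loci in that table, whereas a fragment of up to 17 bases from the start of miR-146a-5p cannot be told from miR-146b-5p.

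The libraries held 3422622 reads on the strand of a microRNA gene in pup 1 and 4538427 in pup 2. Levels are given as CPM, the reads of a gene per 1000000 of those, with mean ± SD over n = 2 pups. A read stands for a whole short RNA, so levels were not divided by gene length. Differences in ligation or capture between sequences were not corrected. Both arms of a hairpin are counted together. With 3 reads taken as the limit of a count of 0, levels of up to 0.877 CPM in pup 1 and 0.661 CPM in pup 2 would have been possible. Reads that mapped to more than 1 locus (25.2% of the total in pup 1, 24.7% in pup 2) are on no gene. The liver label was checked against Mir122, the main microRNA of hepatocytes, which stood at 348624 ± 8931 CPM and ranked 1 in the table.

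The first question was at what level each leukocyte microRNA was present. Reads at the place of Mir142 were the most abundant, Mir223 came next, and both were far above the rest. Mir342, Mir146, Mir155 and Mir150 followed in steps, and Mir146b was close to the limit of detection. The levels spanned 10538-fold ± 1155 from the place of Mir142 to Mir146b, a factor that rests on 4 and 6 reads of Mir146b. The order was the same in both pups.

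Mir142 lies on chromosome 11, chr11:87756864-87756927, plus strand (mm10), inside an intron of its host RNA Mir142hg. The entry Mir142b (ENSMUSG00000065420.2) covers chr11:87756841-87756955 on the minus strand, so it holds the whole Mir142 hairpin on its other strand. The Mir142 hairpin is shown with both mature arms in capitals, because both can give the reads counted here.
Mir142 hairpin: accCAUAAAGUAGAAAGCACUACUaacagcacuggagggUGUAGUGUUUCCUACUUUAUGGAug
The annotated miR-142b is the exact reverse complement of 20 bases of the 3p arm, and it also shares the 10 bases CAUAAAGUAG with the 5p arm, since the arms of the hairpin pair with each other. Strand is thus what separates miR-142b from miR-142a-3p.

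On the strand of Mir142b there were 0 reads in both pups. On the strand of Mir142 there were 45420 reads in pup 1 and 58328 in pup 2. All reads of this entry therefore lay on the Mir142 strand, and 0 of 45420 and 0 of 58328 reads allow a share of Mir142b reads of up to 0.00661% and 0.00514%. These reads made up 27.2% of all opposite-strand counts in pup 1 and 27.3% in pup 2, more than at any other entry of the table. At the other 6 leukocyte genes the opposite strand held 0 reads in both pups, except for 1 read at Mir150 in pup 2, or 0.397% of its reads on either strand. Among the 231 genes with at least 100 reads summed over the strands in each pup, 10 (4.33%) had more reads on the opposite strand, Mir142b among them.

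**Figure D1:**
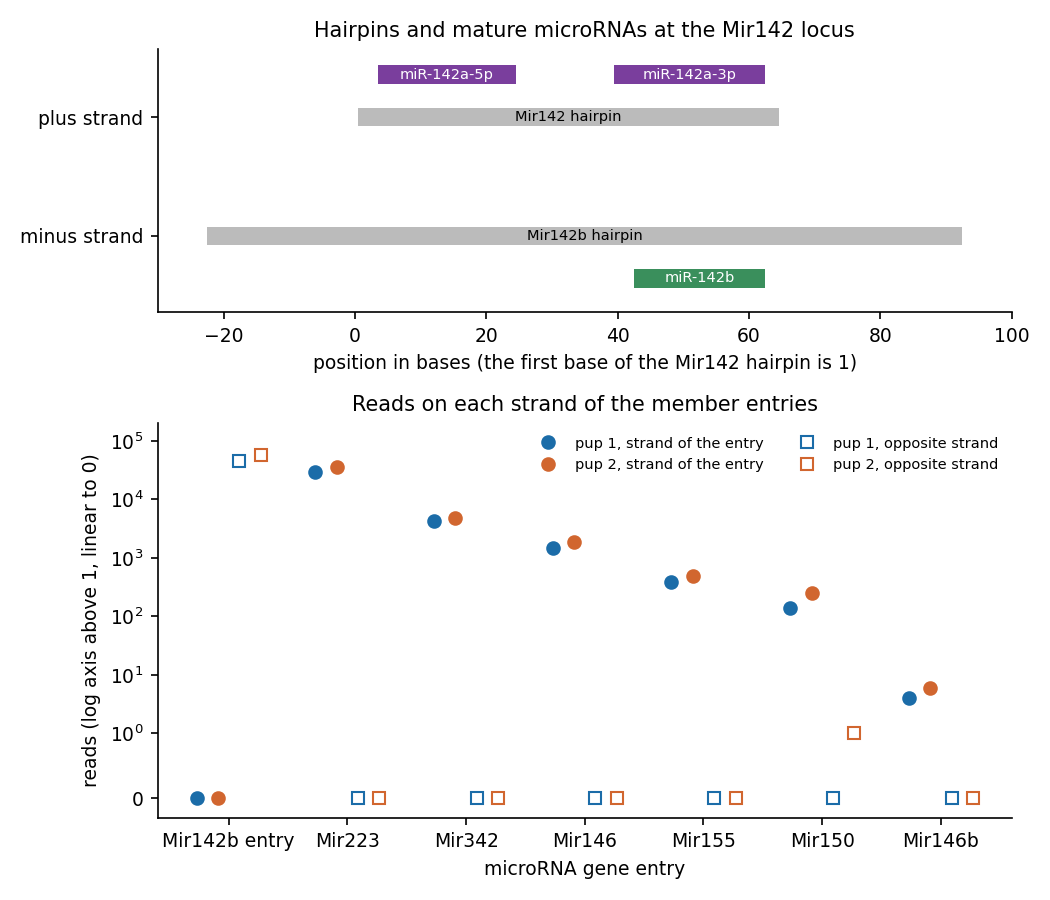
Top, the hairpins (grey) and mature microRNAs (coloured) at the Mir142 locus by position in bases and by strand. Bottom, reads on the strand of each entry (filled circles) and on the opposite strand (open squares) for each pup, on an axis that is logarithmic above 1: Mir142b alone has its reads, 45420 and 58328, on the opposite strand.

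At the place of Mir142 the level was 13270 CPM in pup 1 and 12852 CPM in pup 2, a mean of 13061 ± 296 CPM. Among all genes of the table this place ranked 15. It lay between Mir143 (14225 ± 555 CPM), a microRNA of smooth muscle and other mesenchymal cells, and Mir23b (12518 ± 9.45 CPM), and its range overlapped neither of theirs. In this whole liver the blood cell microRNA thus stood near the level of Mir143, the mesenchymal gene with the most counted reads among those listed.

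Mir223 (ENSMUSG00000076066.1, chrX:96242817-96242926, plus strand, in an exon of the RNA gene F630028O10Rik) restrains the growth and activity of granulocytes. It had 29323 reads in pup 1 and 35607 in pup 2, or 8567 and 7846 CPM. Its mean of 8207 ± 510 CPM ranked 25, between Mir379 (8552 ± 346 CPM) and Mir99b (7595 ± 15.8 CPM). The range of Mir223 overlapped that of Mir379 and lay above that of Mir99b. The place of Mir142 was 1.59 ± 0.0630 times the level of Mir223.

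Mir342 (ENSMUSG00000065436.1, chr12:108658620-108658718, plus strand) lies in an intron of Evl, which codes for an actin regulator, and is read in myeloid and lymphoid cells. It had 4281 and 4910 reads, or 1251 CPM in pup 1 and 1082 CPM in pup 2, with a mean of 1166 ± 119 CPM and rank 76. Its range overlapped those of its neighbours in level, Mir1983 (1196 ± 207 CPM) and Mir455 (1148 ± 9.39 CPM). Mir223 was 7.05 ± 0.285 times as high as Mir342.

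The genes linked to immune activation were lower still. Mir146 (ENSMUSG00000065601.1, chr11:43374397-43374461, minus strand, outside other annotated genes) gives miR-146a, which NF-kB induces and which lowers the signalling proteins Traf6 and Irak1. It had 1452 and 1907 reads, or 424 CPM in pup 1 and 420 CPM in pup 2, the closest match between the pups in relative terms among the 7 genes, at 422 ± 2.86 CPM and rank 116. Mir676 (425 ± 22.7 CPM) and Mir149 (418 ± 77.3 CPM) were next to it in level, and their ranges enclosed its own.

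Mir146b (ENSMUSG00000070127.2, chr19:46342762-46342870, plus strand, in an intron of Mfsd13a) carries the same seed as Mir146. It had 4 reads in pup 1 and 6 in pup 2, or 1.17 CPM (exact 95% interval 0.318 to 2.99) and 1.32 CPM (0.485 to 2.88). Mir146 exceeded it 363-fold in pup 1 (141 to 1334) and 318-fold in pup 2 (146 to 867). Of the reads counted on these genes, nearly all were thus on Mir146. Arms were not counted apart, so the reads that carry the shared seed were not counted as such. Reads too short to reach the differences at G18A and U21C could map to both loci and be on neither gene, and the number of such reads is not known.

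Mir155 (ENSMUSG00000065397.1, chr16:84714140-84714204, plus strand) lies in an exon of its host RNA Mir155hg and lowers Socs1 and Inpp5d in activated lymphocytes and macrophages. It had 391 and 496 reads, or 114 CPM in pup 1 and 109 CPM in pup 2, at 112 ± 3.50 CPM and rank 178. Mir146 was 3.78 ± 0.0928 times as high. The neighbours of Mir155 in level were Mir539 (113 ± 10.4 CPM) and Mir1306 (108 ± 6.27 CPM), and the ranges of all 3 overlapped.

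Mir150 (ENSMUSG00000065495.1, chr7:45121757-45121821, plus strand, outside other annotated genes) lowers Myb and is abundant in mature B and T cells. It had 140 reads in pup 1 and 251 in pup 2, or 40.9 CPM (34.4 to 48.3) and 55.3 CPM (48.7 to 62.6), at 48.1 ± 10.2 CPM and rank 204. Mir669c (48.5 ± 4.99 CPM) and Mirlet7c-2 (45.8 ± 3.03 CPM) lay within its range. Relative to its mean, Mir150 had the widest observed spread of the 7 genes, an SD of 21.2% of the mean against 0.678% to 10.2% for the others. The 8.71% of Mir146b rests on 4 and 6 reads, too few to rank its spread. The myeloid microRNA Mir223 exceeded the lymphocyte microRNA Mir150 by 209-fold in pup 1 (177 to 249) and by 141.9-fold in pup 2 (125 to 161).

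All 6 steps between neighbours in this order, and all 21 pairs of the 7 genes, were separated: the lower pup of the higher gene lay above the higher pup of the lower gene, by more than both SDs together in the means. The narrowest steps were the place of Mir142 over Mir223 and Mir155 over Mir150. Mir155 was 2.79 times Mir150 in pup 1 (2.30 to 3.41) and 1.98 times in pup 2 (1.69 to 2.31). The order rests on sizes and spread, because the smallest two-sided p of an exact permutation test with 2 pups is 0.5. Intervals are exact, at 95%, and cover the counting error of reads only, not the spread between livers. PCR copies of a molecule count as separate reads, which can make the intervals too narrow.

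**Figure D2:**
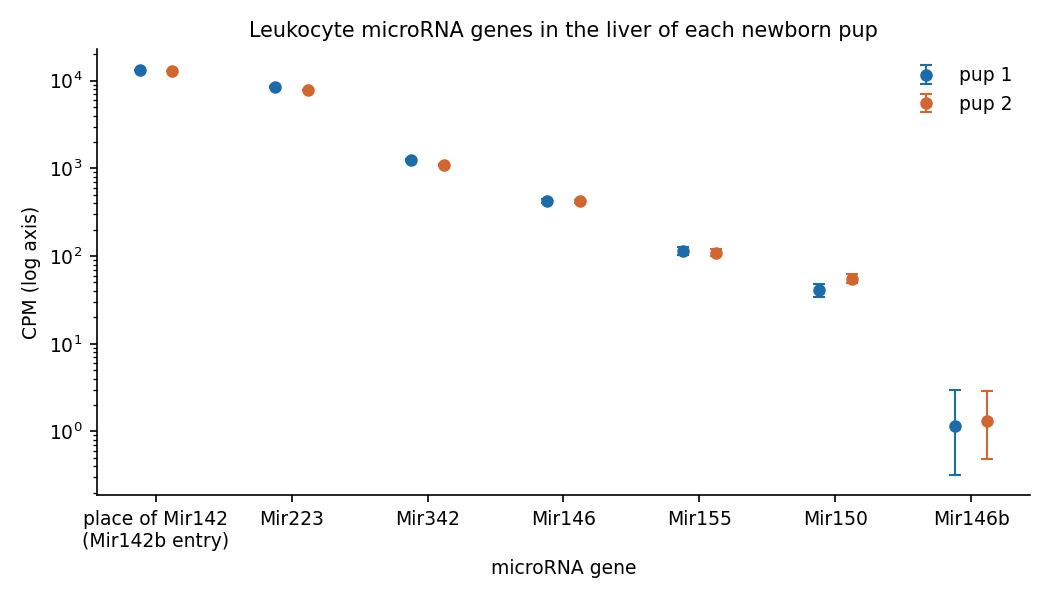
CPM of each leukocyte microRNA gene in pup 1 (blue) and pup 2 (orange) on a log axis, with exact 95% counting intervals as bars. The levels fall from 13270 and 12852 CPM at the place of Mir142 to 1.17 and 1.32 CPM for Mir146b, and the order is the same in both pups.

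The leukocyte genes were then added up to measure their part in the microRNA pool. Together they held 2.34% of microRNA counts in pup 1 (2.32 to 2.35) and 2.21% in pup 2 (2.19 to 2.22), a mean of 2.27% ± 0.0903, with the reads at the place of Mir142 included in both the sum and the total. The place of Mir142 made up 56.8% ± 0.988 of this sum and Mir223 35.6% ± 0.790. Mir342 gave 5.06% ± 0.316, Mir146 1.84% ± 0.0611, Mir155 0.486% ± 0.00424, Mir150 0.210% ± 0.0527 and Mir146b 0.00542% ± 0.000688. The leukocyte sum is thus set by Mir142 and Mir223. In whole liver a lower number of blood cells and a lower amount of a microRNA per cell cannot be told apart.

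Levels were set beside microRNAs of other cell types. The 7 leukocyte genes summed to 23669 CPM in pup 1 and 22366 CPM in pup 2. The 3 erythroid genes in the table, Mir451a, Mir144 and Mir486, summed to 5309 and 5150 CPM, so the leukocyte sum was 4.40 ± 0.0818 times the erythroid one. The most abundant erythroid gene, Mir451a, stood at 3593 ± 401 CPM, and the place of Mir142 was 3.65 ± 0.325 times and Mir223 2.29 ± 0.113 times its level. The leukocyte sum was 1.496 ± 0.114 times that of 6 mesenchymal genes, led by Mir143, and 0.341 ± 0.0250 times the level of Mir126a, the microRNA of endothelial cells. Mir122 of hepatocytes was 26.7 ± 1.29 times the level at the place of Mir142. These ratios compare reads and not cells, since the amount of each microRNA per cell is not known. Mir486b of the erythroid list had no entry, and reads that mapped to more than 1 locus are on no gene. How much each sum lost in this way was not measured, so the ratios hold for counted reads alone.

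A list of 31 other microRNAs with known roles in immune cells was read in the same way. Of these, 29 had an entry and 25 had at least 10 reads in both pups. The highest were Mir21a (32837 ± 4096 CPM), Mir17 (9573 ± 1516 CPM), Mir15a (4422 ± 0.496 CPM) and Mir10a (3422 ± 79.4 CPM), which are known from many other cell types too. This order is one of counted reads, which leave out those that mapped to more than 1 locus. Mir511, which lies in an intron of Mrc1, the gene of a mannose receptor of macrophages, had 109 and 111 reads, or 31.8 CPM in pup 1 and 24.5 CPM in pup 2. Mir147, which is induced in stimulated macrophages, had 92 and 100 reads, or 26.9 and 22.0 CPM. Both lay below Mir150, and Mir223 exceeded Mir511 by 295-fold ± 36.6. Mir511 and Mir147 were named with their values already known, and they do not stand for macrophage microRNAs in general. Other genes of the list lay above Mir150 as well as below it.

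**Figure D3:**
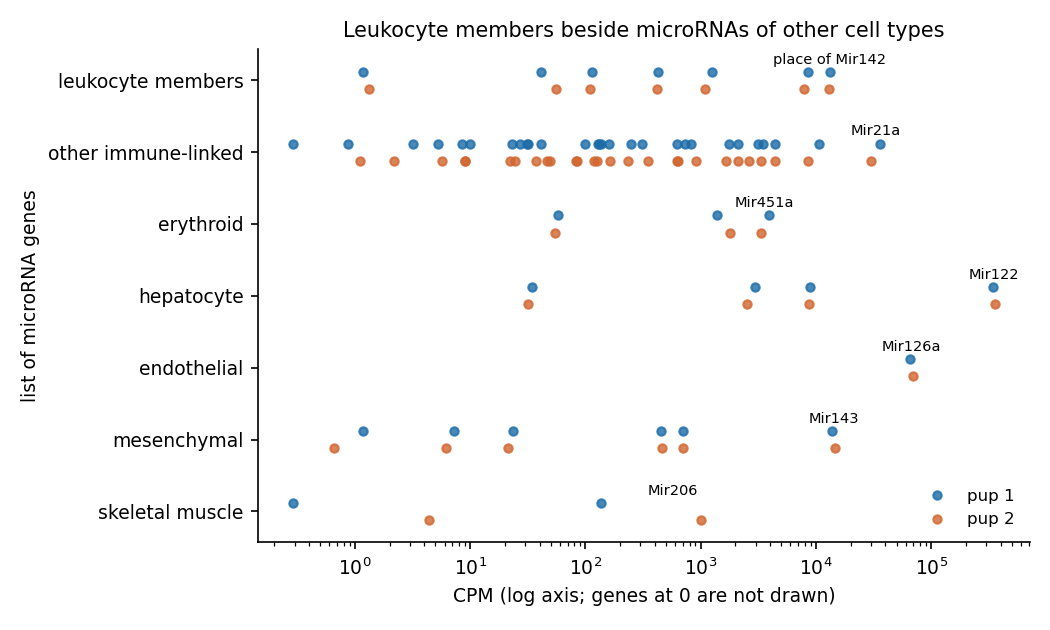
CPM on a log axis of each gene in the leukocyte group and in 6 lists of microRNAs linked to immune cells or to other cell types, with pup 1 in blue and pup 2 in orange and the highest gene of each list named. The place of Mir142 and Mir223 lie above Mir451a, the highest erythroid gene, and below Mir126a and Mir122.

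The pups were compared to ask how evenly the leukocyte microRNAs were represented in the livers of littermates. Mir223, Mir342 and the reads at the place of Mir142 were slightly lower in pup 2, Mir150 was higher, and no difference was detected for Mir146, Mir155 and Mir146b. An exact binomial test was used for each of the 391 genes with at least 10 reads over both libraries. It asks whether 2 libraries differ beyond counting error, and with 1 library per pup the differences have no replicate check. After Benjamini-Hochberg adjustment over all 391 genes it called 4 of the 7 leukocyte genes, against 30.4% of all genes tested. Calls are more frequent among well-counted genes, and of the 222 genes with at least 100 reads in both libraries, 49.1% were called. The 4 called genes are among 6 leukocyte genes with that many reads.

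Of the 4 genes, 3 were called lower in pup 2, as were 14.6% of all genes tested. Mir342 fell by 0.21 on the log2 scale (exact interval -0.27 to -0.15, adjusted p = 4.09e-11 in the exact binomial test). Mir223 fell by 0.13 (-0.15 to -0.10, adjusted p = 1.17e-27 in the exact binomial test), and reads at the place of Mir142 fell by 0.05 (-0.06 to -0.03, adjusted p = 2.10e-06 in the exact binomial test). The level at the place of Mir142 in pup 2 was 0.968 times that in pup 1, a small shift, and with Mir122 left out of the library totals it was no longer called (log2 ratio -0.02, adjusted p = 0.126 in the exact binomial test).

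Mir150 was the 1 leukocyte gene called higher in pup 2, as were 15.9% of all genes tested. Its log2 ratio was 0.44 (0.13 to 0.74), a 1.35-fold difference, with an adjusted p of 0.0154 in the exact binomial test. The ratio of Mir223 to Mir150 had counting intervals that did not overlap between these libraries, as given above, and whether it differs between livers beyond their spread was not tested. For Mir146 the log2 ratio was -0.01 (-0.11 to 0.09), for Mir155 -0.06 (-0.26 to 0.13) and for Mir146b 0.18 (-1.90 to 2.45). The interval of Mir146 is narrow, whereas that of Mir146b is so wide that no difference of moderate size was detectable at this depth.

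Spread between livers cannot be measured apart from the difference itself with 1 library per pup. edgeR's negative binomial exact test, whose common biological coefficient of variation of 0.129 was estimated from the very differences it then tests, called 0 of the 7 leukocyte genes, and 0 had an unadjusted p under 0.05. It called 2 of 391 genes (0.512%), so it ranks differences against those of other genes and is no check of spread between livers. Ignoring direction, the median log2 ratio was 0.10 over the 6 leukocyte genes with at least 100 reads in both libraries, beside 0.12 over all 222 such genes.

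**Figure D4:**
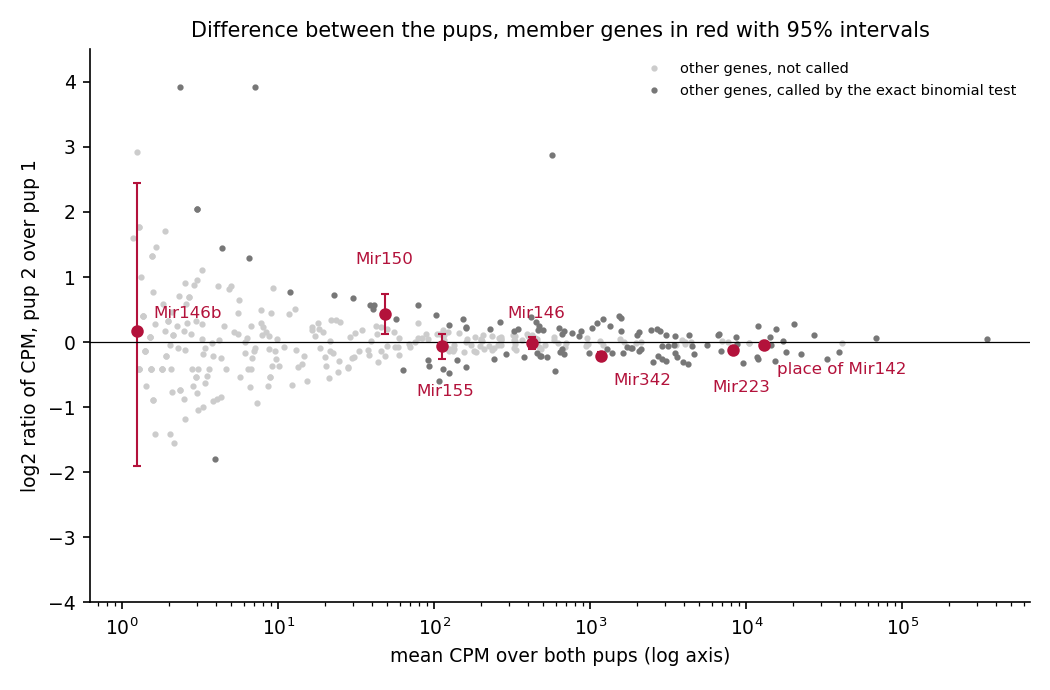
Log2 ratio of CPM in pup 2 over pup 1 against mean CPM (log axis) for 391 genes, with genes called by the exact binomial test in dark grey, other genes in light grey and the leukocyte genes in red with exact 95% intervals. The leukocyte genes lie within the cloud of other genes, from -0.21 for Mir342 to 0.44 for Mir150.

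Other lists were read beside these values. Of 27 other immune-linked genes tested, 4 were called higher in pup 2 (Mir31, Mir181a-1, Mir125b-1 and Mir326) and 8 lower (Mir21a, Mir17, Mir10a, Mir16-1, Mir125a, Mir29a, Mir181b-2 and Mir29c) by the exact binomial test, to be read against the 30.4% called among all genes and the 49.1% among well-counted ones. The negative binomial test called 0 of these 27, with 2 at an unadjusted p under 0.05. Their median log2 ratio was -0.08, beside -0.05 for the leukocyte genes and 0.00 for all genes tested. Mir511 had a log2 ratio of -0.38 (-0.78 to 0.01) and was not called. Of the 3 erythroid genes, Mir144 was called higher (0.38) and Mir451a lower (-0.23), while their sum with Mir486 was nearly level, as given above. Skeletal muscle genes summed to 136 CPM in pup 1 and 1008 CPM in pup 2, nearly all of it Mir206. Mir206 (log2 ratio 2.88) and Mir133b (3.91) were called higher in pup 2 by the exact binomial test, as were 15.9% of all genes tested. The negative binomial test called Mir206 and not Mir133b, which had 1 and 20 reads. Mir1a-1, Mir133a-1 and Mir133a-2 had 0 reads in both pups, and Mir1a-2 had no entry. Reads that mapped to more than 1 locus are on no gene, so these 0 counts do not show absence. The part of blood or muscle content in the differences of the leukocyte genes was not tested.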

How the data were processed

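The authors deposited a file of raw counts for each library, with reads summed per microRNA gene. The assembly was mm10 and the annotation GENCODE M4, per the text beside the files, and the aligner, counter and trimming were not given in the sources used here. Columns had no header, and their strand was read from the values. Uniquely mapped reads on no gene of that strand (8.87% in pup 1, 9.92% in pup 2) stayed out of totals and tests. The exception was the reads at the place of Mir142, which were tested and were added to the total of the leukocyte share. GENCODE M21, also on mm10, gave symbols and coordinates (1894 of 1973 identifiers matched), and RefSeq gave sequences.

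From the counts, CPM, exact Clopper-Pearson intervals (exact Poisson for the place of Mir142) and exact binomial tests with Benjamini-Hochberg adjustment at 0.05 were computed. Software was scipy 1.17.1, edgeR 4.0.16 and DESeq2 1.42.0. The binomial test was also run on simulated counts that held counting error alone, so that run does not cover spread between livers. Reads at the place of Mir142 were put in the row of Mir142b. A quasi-likelihood test was not possible with 1 library per pup. Named genes were the 7 members, up to 4 of the highest and all called genes of the immune-linked list, examples of other lists, and the genes next to each member in level. Mir511 and Mir147 were picked after their values were seen. The members and lists were chosen with earlier results of these data known. Alternatives were unstranded counts, TMM and DESeq2 scaling, other totals, other count minimums, another test and each pup alone.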

Additional observations from a re-analysis of the deposited data

How the results depend on the processing

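The order of the 7 leukocyte genes was the same with unstranded counts and in each pup alone. Choice of the total moved levels by a common factor. With Mir122 left out of the total, mean CPM was 20051 at the place of Mir142, 12595 for Mir223, 1789 for Mir342, 648 for Mir146, 172 for Mir155, 74.0 for Mir150 and 1.91 for Mir146b, and the leukocyte share was 3.46%. Against all uniquely mapped reads, the place of Mir142 stood at 11835 CPM, Mir223 at 7437, Mir146 at 383, Mir155 at 101 and Mir146b at 1.13, with a share of 2.09%. With unstranded counts, which add opposite-strand reads to the total, the place of Mir142 had 12464 CPM, Mir146 403 and Mir155 107. The share was 0.996% when the gene-strand count of Mir142b was used, which is 0, and also 0.996% without that entry. With only the gene-strand total as denominator, an alternative chosen after seeing the data, the share was 2.30%. TMM and DESeq2 scaling kept every level within 1 SD and the number of called leukocyte genes at 4. Without Mir122 in the total, the call at the place of Mir142 was lost (log2 ratio -0.02) and 3 leukocyte genes were called. The negative binomial test called 0 leukocyte genes and 2 of all genes, in place of 4 and 119. No log2 ratio of a called leukocyte gene changed sign. No paired analysis was possible because there is 1 group. Depth limits Mir146b most, at 4 and 6 reads.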
